A study of Mus musculus with 40 samples.

Results

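Setdb1, Setdb2, Suv39h1, Suv39h2, Ehmt1 and Ehmt2 are the mouse genes for histone methyltransferases that act on lysine 9 of histone H3. All 6 were found by symbol among the 39179 genes of a bulk RNA-seq table of CD4+ T cells from mouse spleen. All 6 passed the filter on low values, which left 17254 genes for testing. Their surroundings were read in 13 lists of chromatin peaks from the same study, taking peaks inside each gene and within 50 kb of it.

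The RNA libraries came from C57BL/6 Setdb1-/- mice (labelled Setdb1 KO) and C57BL/6 Setdb1+/+ mice (WT). Th2-Th1 cells had been moved from Th2 culture for 2 days into medium with IL-12 at 10 ng/mL and anti-IL-4, with 3 libraries labelled KO and 2 WT libraries. Th2 cells had been stimulated through CD3 and CD28 and kept with IL-4 at 50 ng/mL and anti-IFN-gamma up to day 6, with 3 libraries labelled KO and 3 WT libraries. Naive cells were taken at day 0, with 3 libraries labelled KO and 4 WT libraries. Chromatin lists held H3K9me3 in naive Setdb1 KO and WT cells and in Th2 Setdb1 KO, Suv39h1-/- (Suv39h1 KO) and WT cells. They also held H3K4me1, H3K27ac and ATAC-seq open chromatin in Th2 Setdb1 KO and WT cells, and another, broad H3K4me1 set in Th2 WT and naive WT cells. The H3K4me1 and H3K27ac lists of both genotypes are labelled experiment 2. The H3K9me3, ATAC and broad H3K4me1 lists carry no experiment label, so overlaps between marks may join separate experiments. Each of these groups has a single list, of which 6 belong to groups with 2 samples and 7 to groups with 1, so no difference between lists has a replicate check. Neither the labels nor the files say which exons were deleted or by what means, and read counts were summed over each whole gene.

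Methylated lysine 9 of histone H3 marks chromatin that is kept silent, and HP1 proteins bind it. SETDB1 writes the trimethyl mark, H3K9me3, at retroelements and zinc-finger genes, where it is brought by KRAB zinc-finger proteins and TRIM28. SUV39H1 and SUV39H2 write it mainly at pericentromeric repeats, while EHMT2 (G9a) and EHMT1 (GLP) work as a pair that writes the mono- and dimethyl marks in euchromatin. SETDB2 is a relative of SETDB1 that also carries a SET domain and a methyl-CpG-binding domain.

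The start windows below belong to the 4 genes whose RNA differed between labelled KO and WT Th2 cells, and each was covered at least in part by open chromatin peaks in Th2 cells. They are RefSeq sequences of build GRCm38.p6, from 250 bases before to 50 bases after the start, on the minus strand in every case. They lie at chr3:95357153-95357452 (Setdb1), chr14:59440831-59441130 (Setdb2), chrX:8074711-8075010 and chrX:8074312-8074611 (the Suv39h1 starts) and chr2:3474937-3475236 (Suv39h2). Capitals mark the letters of the motifs searched.
Setdb1: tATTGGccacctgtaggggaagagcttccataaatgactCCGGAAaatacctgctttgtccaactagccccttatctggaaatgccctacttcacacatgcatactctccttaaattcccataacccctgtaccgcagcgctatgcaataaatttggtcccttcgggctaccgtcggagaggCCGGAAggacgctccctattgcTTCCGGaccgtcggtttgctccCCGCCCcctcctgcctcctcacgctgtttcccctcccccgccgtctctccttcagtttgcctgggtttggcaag
Setdb2: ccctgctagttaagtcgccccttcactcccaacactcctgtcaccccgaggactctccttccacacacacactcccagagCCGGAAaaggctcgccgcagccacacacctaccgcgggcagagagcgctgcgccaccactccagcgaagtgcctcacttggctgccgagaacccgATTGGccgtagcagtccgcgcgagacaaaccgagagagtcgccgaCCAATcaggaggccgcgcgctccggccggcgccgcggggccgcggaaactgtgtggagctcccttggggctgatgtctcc
Suv39h1 first start: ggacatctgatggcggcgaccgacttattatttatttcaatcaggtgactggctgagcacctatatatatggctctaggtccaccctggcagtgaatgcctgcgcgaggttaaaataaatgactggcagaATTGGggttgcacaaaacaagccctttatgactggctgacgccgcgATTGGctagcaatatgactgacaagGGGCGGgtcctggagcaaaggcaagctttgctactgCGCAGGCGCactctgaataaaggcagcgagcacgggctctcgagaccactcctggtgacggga
Suv39h1 second start: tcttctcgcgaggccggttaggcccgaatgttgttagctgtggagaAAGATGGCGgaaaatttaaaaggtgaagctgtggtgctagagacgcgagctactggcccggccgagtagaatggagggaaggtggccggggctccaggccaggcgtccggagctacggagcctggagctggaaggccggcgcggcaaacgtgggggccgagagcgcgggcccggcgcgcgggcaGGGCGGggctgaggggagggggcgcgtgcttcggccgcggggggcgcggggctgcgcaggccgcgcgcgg
Suv39h2: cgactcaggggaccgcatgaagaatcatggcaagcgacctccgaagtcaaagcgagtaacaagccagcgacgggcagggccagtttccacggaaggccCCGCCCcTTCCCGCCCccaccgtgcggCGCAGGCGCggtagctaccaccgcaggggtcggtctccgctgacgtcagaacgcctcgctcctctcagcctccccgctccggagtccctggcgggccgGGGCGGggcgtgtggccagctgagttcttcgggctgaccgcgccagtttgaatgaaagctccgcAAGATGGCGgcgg

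Of the motifs searched on both strands, CCGGAA (ETS) was found at 3 places in the Setdb1 window, with first bases at -211, -68 and -46 from the start. The same letters were found in 14.9% of all 32817 RefSeq start windows, and among the 8 windows of the 6 genes only Setdb1 and Setdb2 held them. The second Suv39h1 window and the Suv39h2 window both held AAGATGGCG (YY1), which 1.4% of all windows held. GGCGGGAA (E2F, in 2.19% of all windows) was found in the Suv39h2 window, where it overlapped a match to GGGCGG (GC box). GGGCGG was found in 7 of the 8 windows and in 35.6% of all windows. CCAAT was found in 3 of the 8 windows and in 37.4% of all, and GCGCNTGCG (NRF1) in 3 of the 8 and in 6.3% of all. CACGTG (E box, in 7.15% of all windows) was found in both Ehmt2 windows, and TATAAA (in 13.6%) in none of the 8. These are matches of letters and not sites of binding.

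Sequencing depth moved with genotype in the cultured cells. Total reads were 37.21 to 37.6 M in Th2-Th1 libraries labelled KO and 18.9 to 19.84 M in Th2-Th1 WT libraries. They were 36.26 to 44.72 M in Th2 libraries labelled KO and 10.14 to 13.26 M in Th2 WT libraries, and 12.77 to 15.34 M in naive libraries labelled KO and 10.02 to 18.51 M in naive WT libraries. Naive KO replicate 2 and naive WT replicates 1 and 3 stood apart, with 22890, 21915 and 25556 genes detected. Without these 3 libraries, all calls on the 6 genes in the 9 comparisons kept their direction, while 1 was lost and 1 was gained, both given with the gene. All 6 CD4 T-cell markers were present in every group. In Th2-Th1 cells they summed to 35576 to 41724 normalised reads in libraries labelled KO and 75972 to 83000 in WT libraries. In Th2 cells they summed to 29344 to 33037 in libraries labelled KO and 36789 to 37175 in WT libraries. Trac among them was higher under the KO label in both conditions, and Cd3e was higher in Th2 cells. The 5 myeloid markers summed to 4669 to 5457 normalised reads in Th2 libraries labelled KO and 1253 to 1622 in Th2 WT libraries, nearly all of it Emr1. The 4 erythroid and platelet markers summed to 380.1 to 415.6 in Th2 libraries labelled KO and 17.5 to 22.2 in Th2 WT libraries, nearly all of it Hba-a1, while Hbb-bs was at 0 in both. The 5 naive T-cell markers summed to 4581 to 5332 in Th2 libraries labelled KO and 17203 to 17922 in Th2 WT libraries. Lef1 among them went the other way, at 1560 to 2020 under the KO label and 1373 to 1557 in WT. The 4 Th2 markers summed to 3757 to 5325 in Th2 libraries labelled KO and 8986 to 9313 in Th2 WT libraries, while Gata3 among them overlapped. In Th2-Th1 cells the 3 Th1 markers summed to 13753 to 25330 in libraries labelled KO and 596.5 to 787.7 in WT libraries, and the 4 Th2 markers to 30442 to 69225 in libraries labelled KO and 357949 to 408255 in WT libraries. The part of other cell types or states in the results was not tested. In bulk samples, fewer cells of a type and less RNA per cell cannot be told apart. The labels do not say that replicates came from separate animals, so p-values measure the spread between libraries.

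In Th2 cells, Setdb1, Setdb2, Suv39h1 and Suv39h2 were all higher in libraries labelled KO than in WT libraries, and none of the 6 genes was lower. In Th2-Th1 cells Setdb1 and Suv39h1 were higher and Ehmt1 was lower, and in naive cells Suv39h2 was higher and Setdb1 was lower. With limma across all genes and an adjusted p under 0.05, this made 4 of 6 genes in Th2 cells, where 54% of all tested genes were called (29.3% higher and 24.7% lower). In Th2-Th1 cells it made 3 of 6, against 33.7% of all genes (17.6% higher and 16.1% lower). In naive cells it made 2 of 6, against 10.9% of all genes (7.43% higher and 3.45% lower). The values of labelled KO and WT libraries did not overlap for 5 of the 6 genes in Th2 cells (64.6% of all genes), 3 in Th2-Th1 cells (59.9%) and 2 in naive cells (16.6%). The median log2 difference of the 6 genes was 0.93 in Th2 cells, where that of all tested genes was 0.13. It was 0.02 against 0.09 in Th2-Th1 cells and 0.01 against -0.00 in naive cells.

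**Figure D1:**
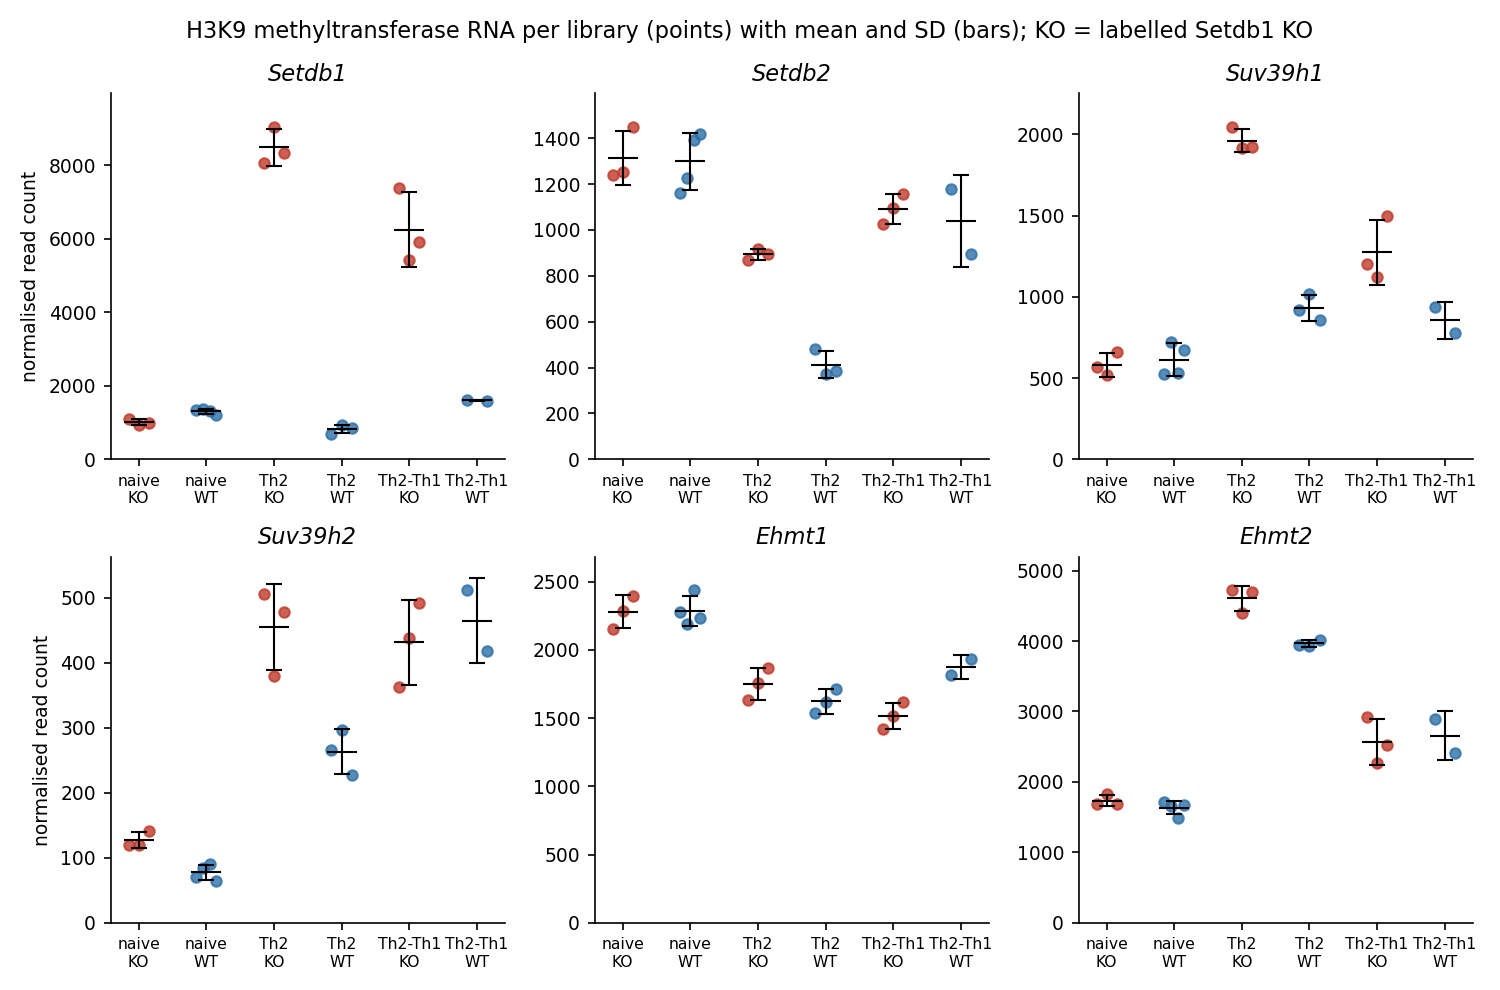
Normalised read counts of the 6 genes in each of the 18 RNA libraries, one panel per gene with its own vertical axis, libraries labelled Setdb1 KO left of WT within each condition. Points are libraries, and bars give the group mean and SD. Setdb1 reached 8069.7 to 9044.3 in Th2 libraries labelled KO, against 693.6 to 933.4 in Th2 WT libraries, while Ehmt1 stayed between 1419 and 2437 in every library.

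Setdb1, the gene named by the knockout label, had the widest range of the 6, and its RNA in cultured cells went against that label. In Th2 libraries labelled KO it stood at 8069.7, 9044.3 and 8341.7 normalised reads. In Th2 WT libraries it stood at 693.6, 933.4 and 840.7. Every library labelled KO was thus far above every WT library, by 10.4-fold on the log2(value + 1) scale, a log2 difference of 3.37 ± 0.12 (SE, n = 3 and 3, limma adjusted p = 7.22e-14). The difference was higher than that of 97.6% of the genes tested. Since reads over all exons were summed, the count cannot separate transcripts that carry the deletion from those that do not.

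In Th2-Th1 cells Setdb1 was again higher under the KO label, though by less. The libraries labelled KO stood at 7388.8, 5429.8 and 5913.8 normalised reads. The WT libraries stood at 1611.1 and 1593.9. The groups did not overlap, and they differed by 1.95 ± 0.13 on the log2 scale (adjusted p = 3.04e-09 in limma).

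In naive cells Setdb1 was lower under the KO label, by a small amount. The libraries labelled KO stood at 1102.7, 932.6 and 983.6 normalised reads, and the WT libraries at 1336, 1365.8, 1325.4 and 1214. The highest library labelled KO was below the lowest WT library, and the mean was 1006 ± 87.2 in libraries labelled KO and 1310.3 ± 66.4 in WT libraries (SD, n = 3 and 4). The log2 difference was -0.38 ± 0.11 (limma, adjusted p = 0.0319). This call did not hold without naive KO replicate 2 (adjusted p = 0.152) or 3 (0.0606), without naive WT replicate 1 (0.0681), 2 (0.0675) or 3 (0.0566), nor without the 3 libraries that stood apart (log2 difference -0.31, adjusted p = 0.32). It was also lost with no filter on low values (limma adjusted p = 0.0625) and in a fit of the naive groups alone (0.0647).

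Setdb2, the relative of Setdb1, was higher under the KO label in Th2 cells. The Th2 libraries labelled KO stood at 868.9, 919.2 and 893.3 normalised reads. The Th2 WT libraries stood at 479.9, 373 and 384.2. The labelled KO values were close together and all above the WT values, with a log2 difference of 1.12 ± 0.13 (limma, adjusted p = 3.56e-07).

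Outside Th2 cells the Setdb2 groups overlapped. Th2-Th1 libraries labelled KO stood at 1025.8, 1097 and 1155.4 normalised reads, between or beside the WT values of 1180 and 895.7, and the 95% interval of the log2 difference ran from -0.21 to 0.38 (limma, adjusted p = 0.705). Naive libraries averaged 1315 ± 117.3 under the KO label and 1300.1 ± 124.6 in WT (SD, n = 3 and 4), with an interval of -0.23 to 0.27 (limma, adjusted p = 0.963). RefSeq places a protein-coding model, Gm45935, on the same strand over the whole of Setdb2, so reads of the 2 may have been shared or dropped by the authors' counting. Whether that counting used strand is not stated by the labels or files.

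Suv39h1, which writes H3K9me3 at pericentromeric repeats, was higher under the KO label in both cultured conditions. Th2 libraries labelled KO stood at 2046.6, 1916.8 and 1921.9 normalised reads, and Th2 WT libraries at 919.4, 1015 and 858.2. No Th2 WT library came near the labelled KO values, and the log2 difference was 1.08 ± 0.14 (limma, adjusted p = 3.26e-06). Th2-Th1 libraries labelled KO stood at 1198.9, 1121.5 and 1499.8 normalised reads, and Th2-Th1 WT libraries at 934.3 and 774.9. The groups were again apart, with a log2 difference of 0.57 ± 0.16 (limma, adjusted p = 0.00981). This second call did not hold without Th2-Th1 KO replicate 3 (log2 difference 0.45, adjusted p = 0.0522) or Th2-Th1 WT replicate 2 (0.43, adjusted p = 0.142).

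In naive cells Suv39h1 did not separate the labels. Libraries labelled KO stood at 568.7, 516.3 and 662.6 normalised reads and WT libraries at 525.2, 724.7, 532.3 and 670.8, and the values overlapped (log2 difference -0.07, interval -0.35 to 0.22, limma adjusted p = 0.839).

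Suv39h2, the second SUV39 enzyme, had the fewest reads, from 50 to 1272 in a library before scaling. Naive libraries labelled KO stood at 120.2, 119.4 and 141 normalised reads, and naive WT libraries at 71.1, 83.6, 90.5 and 64.2. The labelled KO libraries were all above the WT libraries, with a difference of 0.71 ± 0.18 on the log2 scale (adjusted p = 0.0124 in limma). The call held without the 3 libraries that stood apart (log2 difference 0.82, limma adjusted p = 0.0454), and a fit of the naive groups alone did not keep it (adjusted p = 0.101).

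In Th2 cells Suv39h2 was higher under the KO label by a like amount. Th2 libraries labelled KO stood at 505.4, 380.1 and 478.6 normalised reads, and Th2 WT libraries at 266.2, 296.9 and 227. The groups did not overlap, and they differed by 0.78 ± 0.19 on the log2 scale (adjusted p = 0.00163 in limma). In Th2-Th1 cells the libraries labelled KO stood at 363, 438.3 and 492.2 and the WT libraries at 511.4 and 418.2, and these values overlapped (log2 difference -0.11, interval -0.55 to 0.33, limma adjusted p = 0.747). The gene overlaps Dclre1c, a DNA repair nuclease gene on the opposite strand, over 18397 bases. Dclre1c itself averaged 388.4 normalised reads in Th2 libraries labelled KO and 214.8 in Th2 WT libraries (log2 difference 0.91, limma adjusted p = 0.00145), and without a stated strand setting reads of the pair cannot be told apart.

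The summed level of 22 cell-cycle genes was higher under the KO label in naive and Th2 cells and overlapped in Th2-Th1 cells, as Suv39h2 did, and its part in that result was not tested. Suv39h1 was called in Th2 and Th2-Th1 cells and not in naive cells, and the part of the cell-cycle genes there was not tested either. The summed level was 188737 to 218380 normalised reads in Th2 libraries labelled KO and 96301 to 101131 in Th2 WT libraries. In Th2-Th1 cells the sum was 94491 to 136074 in libraries labelled KO and 129312 to 129663 in WT libraries. In naive cells it was 17547 to 23082 in libraries labelled KO and 7607 to 8470 in WT libraries.

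The Ehmt genes, which encode the G9a and GLP pair, had the smallest differences between the labels of the 6 genes in Th2 cells. Ehmt1 stood at 1629, 1757.8 and 1866.5 normalised reads in Th2 libraries labelled KO and at 1536.4, 1616.2 and 1716.3 in Th2 WT libraries, and these values overlapped (log2 difference 0.11, interval -0.08 to 0.30, limma adjusted p = 0.327). Ehmt2 stood at 4720.6, 4403.9 and 4702.7 in Th2 libraries labelled KO and at 3949.9, 3930.1 and 4018.9 in Th2 WT libraries. The Ehmt2 groups did not overlap, but the log2 difference of 0.22 ± 0.10 missed the threshold (limma, adjusted p = 0.0733). Under TMM scaling, which moved the median difference of all genes in Th2 cells to 0.24 from 0.13, both passed, at 0.35 for Ehmt2 (limma, adjusted p = 0.00757) and 0.25 for Ehmt1 (0.0212). They also passed in edgeR on the recovered reads (adjusted p = 0.00954 and 0.0334), at log2 differences of 0.35 and 0.25. In DESeq2 on the same reads neither passed (log2 differences 0.22 and 0.11, adjusted p = 0.0579 and 0.297). In limma, Ehmt2 passed in a fit of the Th2 groups alone (adjusted p = 0.0177) and without Th2-Th1 KO replicate 1 (0.0482).

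In Th2-Th1 cells Ehmt1 was the one gene of the 6 that was lower under the KO label. Its libraries labelled KO stood at 1419.1, 1512.2 and 1614.6 normalised reads and its WT libraries at 1814.3 and 1934.3. The groups did not overlap, and the log2 difference was -0.31 ± 0.10 (limma, adjusted p = 0.0221). The call was lost without Th2-Th1 KO replicate 1 (adjusted p = 0.076), Th2-Th1 WT replicate 1 (0.0503) or Th2-Th1 WT replicate 2 (0.164), under TMM scaling (0.0779), in edgeR (0.104) and in a fit of the Th2-Th1 groups alone (0.0592).

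Ehmt2 in Th2-Th1 cells stood at 2920.8, 2268.6 and 2518.2 normalised reads in libraries labelled KO and at 2898.6 and 2406 in WT libraries (log2 difference -0.05, interval -0.28 to 0.18, limma adjusted p = 0.804). In naive cells neither Ehmt gene differed past the threshold. Ehmt1 averaged 2278 ± 121 in libraries labelled KO and 2283.5 ± 108.3 in WT libraries, and Ehmt2 averaged 1734.1 ± 77.6 in libraries labelled KO and 1635.8 ± 97.2 in WT libraries (SD, n = 3 and 4), with limma adjusted p of 0.995 and 0.667.

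**Figure D2:**
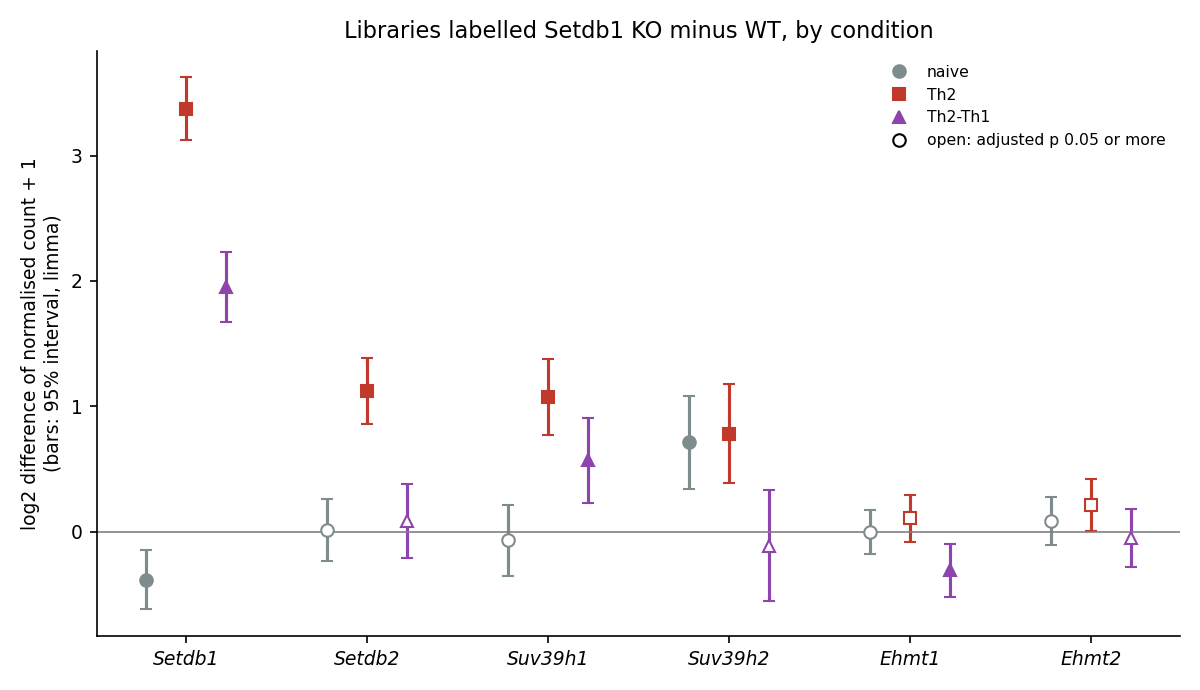
Log2 difference between libraries labelled Setdb1 KO and WT libraries for the 6 genes in naive, Th2 and Th2-Th1 cells, with 95% intervals from limma. Filled points have an adjusted p under 0.05 over all 17254 genes, and open points do not. Setdb1 stands at 3.37 in Th2 and 1.95 in Th2-Th1 cells and at -0.38 in naive cells, and the Ehmt genes stay within 0.31 of 0.

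The difference between labels was itself compared across conditions. Relative to naive cells, the labelled KO minus WT difference in Th2 cells was larger by 3.76 ± 0.16 for Setdb1 (limma interaction, adjusted p = 6.08e-12), by 1.11 ± 0.17 for Setdb2 (4.03e-05) and by 1.14 ± 0.20 for Suv39h1 (0.000114). These were 3 of 6 genes, where 41.3% of all genes were called (20.7% in the same direction). No such change passed for Suv39h2, whose difference was 0.71 in naive and 0.78 in Th2 cells (interaction 0.07, interval -0.47 to 0.61, limma adjusted p = 0.861), nor for Ehmt1 (0.501) or Ehmt2 (0.478).

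From Th2 to Th2-Th1 cells the labelled KO minus WT difference became smaller or more negative for 4 of 6 genes, where 35.5% of all genes changed and 18.2% changed downwards. The changes were -1.43 ± 0.18 for Setdb1 (limma interaction, adjusted p = 4.49e-06), -1.04 ± 0.19 for Setdb2 (0.000263), -0.90 ± 0.28 for Suv39h2 (0.0185) and -0.42 ± 0.13 for Ehmt1 (0.02). The Suv39h2 call was lost without Th2 KO replicate 1 (adjusted p = 0.0521), Th2-Th1 KO replicate 1 (0.0519) or Th2-Th1 WT replicate 1 (0.0996), and the Ehmt1 call without Th2 KO replicate 3 (0.057) or Th2-Th1 WT replicate 2 (0.0868). Suv39h1 changed by -0.51 (limma, adjusted p = 0.0761), and passed without Th2-Th1 KO replicate 3 (-0.63, adjusted p = 0.0307), without the 3 naive libraries that stood apart (0.0404) and in a fit without the naive groups (0.0305). Ehmt2 changed by -0.26 (limma, adjusted p = 0.185).

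Culture as Th2 cells moved all 6 genes in WT cells. Setdb1, Setdb2 and Ehmt1 were lower in Th2 WT than in naive WT libraries, and Suv39h1, Suv39h2 and Ehmt2 were higher. All 6 passed, where 65.9% of all genes did (32.8% higher and 33.1% lower), and all 6 had groups that did not overlap (61% of all genes). Setdb2 averaged 412.3 normalised reads in Th2 WT and 1300.1 in naive WT libraries (log2 difference -1.66 ± 0.12, limma adjusted p = 2.27e-10). Suv39h2 averaged 263.4 in Th2 WT and 77.4 in naive WT libraries (1.76 ± 0.18, limma adjusted p = 3.48e-08). Ehmt2 averaged 3966 ± 46.6 in Th2 WT and 1635.8 ± 97.2 in naive WT libraries (1.28 ± 0.09, limma adjusted p = 2.84e-10). The remaining differences were -0.68 for Setdb1, 0.61 for Suv39h1 and -0.49 for Ehmt1. Without the 3 naive libraries that stood apart all 6 still passed, with Suv39h1 at 0.41 (limma, adjusted p = 0.016). The 22 cell-cycle genes rose over the same step in 21 cases, with a median of 5.98, and their part in the 3 increases was not tested.

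Under the KO label the same step raised 4 genes and lowered 2, where 53.5% of all genes passed (28.3% higher and 25.2% lower) and the groups of all 6 did not overlap (63.5% of all genes). Setdb1 averaged 8485 ± 503 normalised reads in Th2 and 1006 ± 87.2 in naive libraries labelled KO (log2 difference 3.08 ± 0.12, limma adjusted p = 1.01e-13), while WT cells differed in the other direction. Suv39h1 gained 1.76 ± 0.14, Suv39h2 1.83 ± 0.19 and Ehmt2 1.41 ± 0.10 on the log2 scale, while Setdb2 fell by 0.55 and Ehmt1 fell by 0.38. The largest limma adjusted p among the 6 was 0.00127, for Ehmt1.

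Setdb1, Setdb2 and Suv39h2 were higher in Th2-Th1 WT than in Th2 WT libraries, and Ehmt2 was lower. These were 4 of 6 genes, where 49.8% of all genes passed (25.8% higher and 24% lower). The step joins time in culture, IL-12 and anti-IL-4, and no RNA group tells them apart. The groups did not overlap for 5 of the 6 (62.7% of all genes). Setdb2 averaged 1037.9 normalised reads in Th2-Th1 WT and 412.3 in Th2 WT libraries (log2 difference 1.33 ± 0.14, limma adjusted p = 2.26e-07). Setdb1 averaged 1602.5 in Th2-Th1 WT and 822.6 in Th2 WT libraries (0.97 ± 0.13, limma adjusted p = 5.45e-06). Suv39h2 differed by 0.82 ± 0.21 (limma, adjusted p = 0.00311), which was lost without Th2-Th1 WT replicate 1 (0.0544), and Ehmt2 by -0.59 ± 0.11 (0.00019). Suv39h1 differed by -0.13 and Ehmt1 by 0.21, neither past the threshold (limma, adjusted p = 0.561 and 0.0925).

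Under the KO label none of the 6 genes was called higher in Th2-Th1 than in Th2 libraries, while Setdb1, Suv39h1 and Ehmt2 were lower. These were 3 of 6 genes, where 26.7% of all genes passed (13% higher and 13.6% lower). Time, IL-12 and anti-IL-4 are joined in this step too. The groups did not overlap for 5 of the 6 (49.3% of all genes). The log2 differences were -0.45 ± 0.12 for Setdb1 (limma, adjusted p = 0.00719), -0.63 ± 0.14 for Suv39h1 (0.00238) and -0.85 ± 0.10 for Ehmt2 (2.04e-06). The Setdb1 call was lost without Th2-Th1 KO replicate 2 (-0.36, adjusted p = 0.0572). Setdb2 differed by 0.29 (limma, adjusted p = 0.105, and 0.0278 in a fit of these groups alone) and Ehmt1 by -0.21 (0.0967, 0.043 under TMM scaling and 0.0427 in DESeq2). Suv39h2 differed by -0.08 (0.851). The Th2 libraries serve in both this step and the one from naive cells, so those values are not independent.

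**Figure D3:**
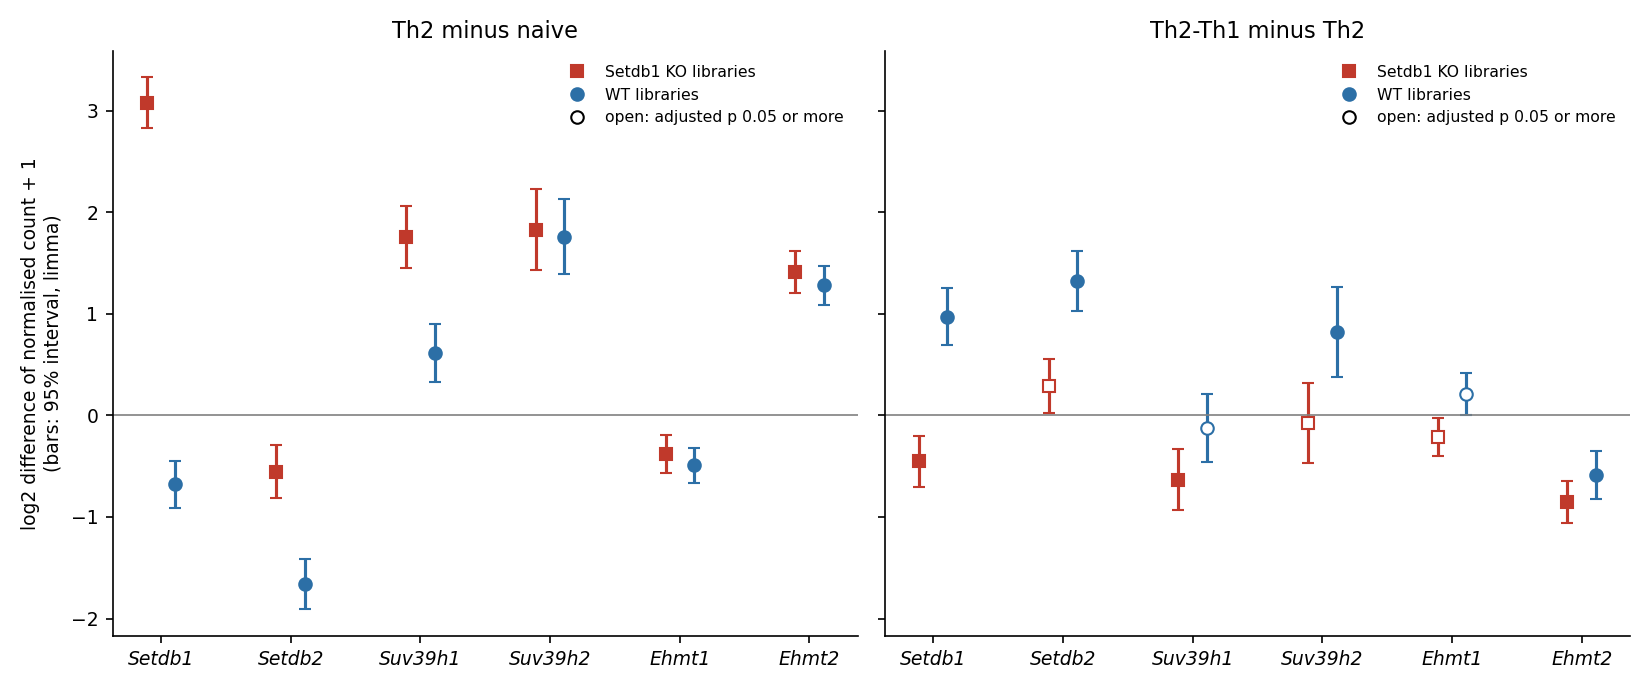
Log2 differences of the 6 genes over each culture step, Th2 minus naive on the left and Th2-Th1 minus Th2 on the right, in libraries labelled Setdb1 KO (squares) and WT libraries (circles), with 95% intervals from limma and open points where the adjusted p was 0.05 or more. Setdb1 stands at 3.08 under the KO label and -0.68 in WT over the first step, and at -0.45 under the KO label and 0.97 in WT over the second, while Ehmt2 goes up and then down in both.

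Ordered by their means over the 6 groups, the genes spanned very different ranges. Setdb1 ran over 10.3-fold, with Th2 libraries labelled KO highest and Th2 WT libraries lowest, and only the naive KO and Th2 WT groups, next to each other at the low end, overlapped. Suv39h2 ran over 6.01-fold, and its 3 highest groups, Th2-Th1 WT, Th2 labelled KO and Th2-Th1 labelled KO, overlapped each other in order. Suv39h1 ran over 3.37-fold, Setdb2 over 3.19-fold and Ehmt2 over 2.82-fold. Ehmt1 ran over 1.51-fold, with means of 1515.3 in Th2-Th1 libraries labelled KO and 2283.5 in naive WT libraries at its ends, and only the naive KO and Th2-Th1 WT groups failed to overlap among its neighbours.

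Across the 18 libraries, likeness to each gene was measured as the root mean square of the log2 differences between centred profiles, over 10245 other genes with a sufficient level. The libraries share genotype labels and depth, so these values are a description. The nearest profiles to Setdb1 were Gen1, a Holliday junction resolvase gene, at 0.44, Fasn, the fatty acid synthase gene, at 0.46, and Acadm, for a fatty acid oxidation enzyme, at 0.46, where Setdb1 itself had a root mean square of 1.31 around its own mean. Setdb2 was nearest to Fam98a (0.16), Suv39h1 to Nedd1, a centrosome gene (0.21), and Suv39h2 to Plk4, a centriole duplication kinase gene (0.21). Ehmt1, with 0.25 around its own mean, was nearest to Senp6, a SUMO protease gene (0.09), and Ehmt2 to Arl6ip1 (0.16). Among the 6 genes themselves, Suv39h1 and Ehmt2 were the closest pair (0.37) and Setdb1 and Ehmt1 the farthest (1.45).

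The genes for proteins that work with SETDB1 or with the G9a and GLP pair were higher under the KO label in many cases. Of 22 tested, 17 were higher and none lower in Th2 cells, with a median log2 difference of 1.19 (all genes 0.13, of which 29.3% were higher and 24.7% lower). In naive cells 11 were higher and none lower, with a median of 0.37 (all genes 7.43% higher and 3.45% lower). Without the 3 libraries that stood apart 8 were higher and none lower there. In that fit 760 of 16010 genes, with 1 gene ID per symbol, were higher and 203 lower. In Th2-Th1 cells 6 were higher and 3 lower, with a median of 0.11 (all genes 17.6% higher and 16.1% lower). The list holds genes linked to DNA replication, such as Chaf1a, Uhrf1 and Dnmt1, and the cell-cycle genes were also higher under the KO label in naive and Th2 cells, in 21 and 14 of 22 cases. Their part was not tested. The table's 2810474O19Rik, a RefSeq synonym of Resf1, which is known to act with SETDB1 in silencing retroelements, was the highest in Th2 cells, at 26185 ± 1575 normalised reads in libraries labelled KO and 1526 ± 229.7 in WT libraries (log2 difference 4.11, limma adjusted p = 7.22e-14). Atf7ip, whose product stabilises SETDB1, averaged 2185 ± 161.4 in Th2-Th1 libraries labelled KO and 480.7 ± 68.6 in WT libraries (2.19, limma adjusted p = 3.25e-08). Chaf1a, a chromatin assembly subunit gene, was higher in naive libraries labelled KO (207 ± 69.5 against 16.5 ± 9.15 in naive WT) and lower in Th2-Th1 libraries labelled KO (1827 ± 232 against 4737 ± 145 in Th2-Th1 WT), with limma adjusted p of 4.52e-08 and 0.00379. The naive difference of 3.66 was 4.19 without the 3 libraries that stood apart. Cbx3 and Cbx1, which encode HP1 proteins that bind methylated lysine 9, were lower in Th2-Th1 libraries labelled KO by log2 differences of -0.84 and -0.62 (limma, adjusted p = 0.00378 and 0.00179).

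The H3K9 demethylase genes, which remove the mark, were divided. Of 11 tested, 3 were higher and 4 lower under the KO label in Th2 cells, with a median of 0.17. Of all genes, 29.3% were higher and 24.7% lower there. Under TMM scaling 6 of the 11 were higher and 4 lower. In Th2-Th1 cells 5 were higher and none lower (median 0.33), under TMM scaling as well. Among all genes 17.6% were higher and 16.1% lower in Th2-Th1 cells. In naive cells none passed in limma (median 0.24, all genes 7.43% higher and 3.45% lower). There 4 had an unadjusted p under 0.05, all higher, while edgeR called 1 and DESeq2 called 2, all higher. Kdm4b averaged 948 ± 125 normalised reads in Th2 libraries labelled KO and 2723 ± 270.3 in Th2 WT libraries (log2 difference -1.53, limma adjusted p = 2.18e-08). In Th2-Th1 cells the gene was higher under the KO label, at 555 ± 20.6 against 392.3 ± 73.3 in WT (0.51, limma adjusted p = 0.0157). Kdm3a was likewise lower in Th2 cells (-0.93, limma adjusted p = 1.25e-07) and higher in Th2-Th1 cells (0.52, 0.00106).

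Of 36 genes for other SET-domain methyltransferases, 16 were higher and 5 lower under the KO label in Th2 cells (median 0.35). Of all genes, 29.3% were higher and 24.7% lower there. In Th2-Th1 cells 9 were higher and 2 lower (median 0.25, all genes 17.6% higher and 16.1% lower). In naive cells 9 were higher and 3 lower (median 0.26, all genes 7.43% higher and 3.45% lower). Without the 3 libraries that stood apart the naive counts became 1 and 1, where 760 of 16010 genes were higher and 203 lower. Kmt2a, an H3K4 methyltransferase gene, was among the higher ones in all 3 conditions, with log2 differences of 0.96 in naive, 1.34 in Th2 and 0.96 in Th2-Th1 cells (limma, adjusted p = 0.0136, 0.000198 and 0.0141). The naive call was lost without the 3 libraries that stood apart (0.55, adjusted p = 0.368). Ezh2, the H3K27 methyltransferase of Polycomb, averaged 3416 ± 874 normalised reads in Th2-Th1 libraries labelled KO and 7157 ± 474 in WT libraries (-1.10, limma adjusted p = 7.64e-05). Smyd3 was lower in Th2 libraries labelled KO (-1.99, limma adjusted p = 4.83e-10) and higher in Th2-Th1 libraries labelled KO (1.13, 1.41e-05).

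The genes next to the 6 did not all move with them. Of 26 other genes within 50 kb that passed the filter, 10 were higher and 7 lower under the KO label in Th2 cells (29.3% and 24.7% of all genes), 5 and 5 in Th2-Th1 cells (17.6% and 16.1%), and 1 and 1 in naive cells (7.43% and 3.45%). These counts lie near the shares of all genes. Next to Setdb1, Cers2, a ceramide synthase gene whose end overlaps that of Setdb1 by 75 bases, averaged 1947 normalised reads in Th2 libraries labelled KO and 1475 in Th2 WT libraries (log2 difference 0.39, limma adjusted p = 0.0117), well short of the 3.37 of Setdb1. Cab39l starts 54 bases from the start of Setdb2 on the other side and went the other way, at 876 in Th2 libraries labelled KO and 2030 in Th2 WT libraries (-1.21, limma adjusted p = 3.5e-09). Phf11c, 8.5 kb beyond the end of Setdb2, averaged 310.5 in Th2 libraries labelled KO and 7.85 in Th2 WT libraries (5.88, limma adjusted p = 1.43e-07). The Gm45935 model that lies over Setdb2 also spans Phf11c, so the limit on shared reads given for Setdb2 applies here too. Near Ehmt1, Cacna1b, a calcium channel gene, averaged 1075 in naive libraries labelled KO and 8.96 in naive WT libraries (7.72, limma adjusted p = 1.55e-05, and 9.51 without the 3 libraries that stood apart), while Ehmt1 itself differed by -0.00. Near Ehmt2, the heat-shock gene Hspa1b averaged 26.5 in Th2 libraries labelled KO and 4686 in Th2 WT libraries (-7.46, limma adjusted p = 1.91e-09), while Ehmt2 differed by 0.22.

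H3K9me3 was listed near most of the 6 genes in WT cells and near all of them in Suv39h1 KO cells, and near none in Setdb1 KO cells. No region was listed inside or within 50 kb of any of the 6 genes in Th2 Setdb1 KO cells (5.64% of 21887 protein-coding genes had one) or in naive Setdb1 KO cells (6.73%). The Suv39h1 KO list had a region near all 6 genes (81.6% of genes), the Th2 WT list near 4 (48.7%) and the naive WT list near 5 (47.9%). The lists differed in length, and held 1708 regions in Th2 Setdb1 KO, 43404 in Th2 Suv39h1 KO, 12233 in Th2 WT, 1163 in naive Setdb1 KO and 9659 in naive WT cells. Inside the genes, regions were listed for 3 of 6 in Suv39h1 KO cells (38.4% of genes), 2 of 6 in Th2 WT cells (14.3%) and 1 of 6 in naive WT cells (13.6%), and for none in Setdb1 KO Th2 (1.9%) or naive cells (1.85%). None of the start windows held a region in any of the 5 lists, where 0.16% to 4.31% of 17492 genes had one.

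**Figure D4:**
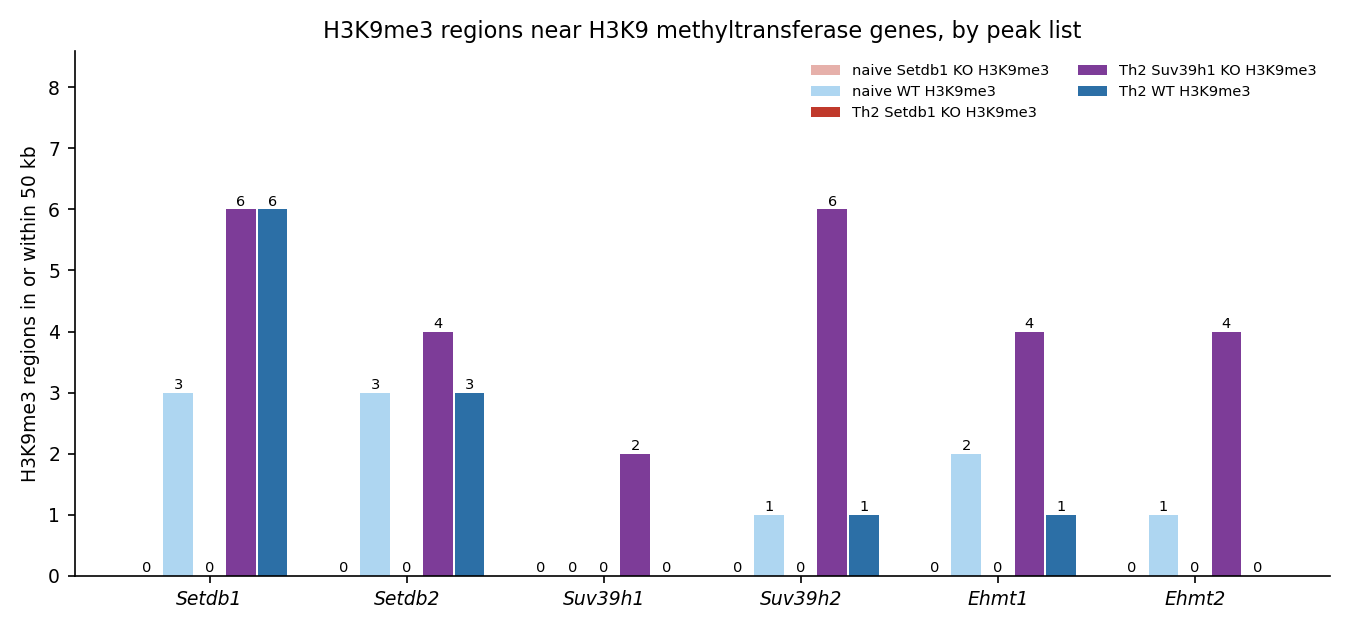
Number of listed H3K9me3 regions in and within 50 kb of each of the 6 genes in the 5 lists, 1 list per group. Both Setdb1 KO lists have 0 at every gene, while the Suv39h1 KO list has 6, 4, 2, 6, 4 and 4 at Setdb1, Setdb2, Suv39h1, Suv39h2, Ehmt1 and Ehmt2 and the Th2 WT list has 6, 3, 0, 1, 1 and 0.

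Setdb1 (chr3:95323525-95357202, minus strand, mm10 coordinates) had the most H3K9me3 regions of the 6 genes in Th2 WT cells. In Th2 WT cells a region of 850 bases lay inside the gene at chr3:95348451-95349300, and 5 more lay upstream of its start, between 95360301 and 95396100. The longest of those, at chr3:95374601-95379550, was longer than 96.6% of the regions in its list. In Suv39h1 KO cells a single region of 22750 bases, chr3:95374151-95396900, covered 4 of those 5, and 27 of the 43404 regions of that list were at least as long. The intragenic region was also listed there, over 2800 bases. Naive WT cells had 3 regions around the gene, of 650, 400 and 3000 bases, and 3 around Setdb2 as well.

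In Th2 Setdb1 KO cells, H3K27ac, a mark of active promoters and enhancers, was listed upstream of Setdb1 over stretches that the WT list gave as H3K9me3. The Setdb1 KO list held one H3K27ac peak of 9815 bases at chr3:95353169-95362983, longer than 99.4% of its list, over the start and the nearest upstream H3K9me3 region. The WT list held one of 948 bases at chr3:95356257-95357204 there. The Setdb1 KO peak covered all 300 bases of the start window and the WT peak 52 of them. The ATAC list of Setdb1 KO cells had a peak of 681 bases, chr3:95360152-95360832, on the same upstream H3K9me3 region, and the WT ATAC list had none there. A further Setdb1 KO H3K27ac peak of 4016 bases, chr3:95372772-95376787, reached into the long upstream region, where the WT list again had none.

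Within 50 kb of Setdb1 the peaks of H3K27ac numbered 14 in Setdb1 KO and 8 in WT Th2 cells, and covered 26205 bases in Setdb1 KO and 13069 in WT cells. For H3K4me1, which marks enhancers, there were 24 peaks over 41897 bases in Setdb1 KO and 14 over 27392 bases in WT cells. For ATAC there were 14 peaks over 4970 bases in Setdb1 KO and 18 over 5952 bases in WT cells. The whole Setdb1 KO lists held 40802 H3K27ac, 97093 H3K4me1 and 58955 ATAC peaks, and the whole WT lists 31251, 76282 and 92812. H3K27ac peaks at Ehmt1 numbered 9 in Setdb1 KO and 5 in WT Th2 cells, over 5487 bases in Setdb1 KO and 6047 in WT cells. At the remaining 4 genes the numbers differed by at most 1 between Setdb1 KO and WT cells.

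**Figure D5:**
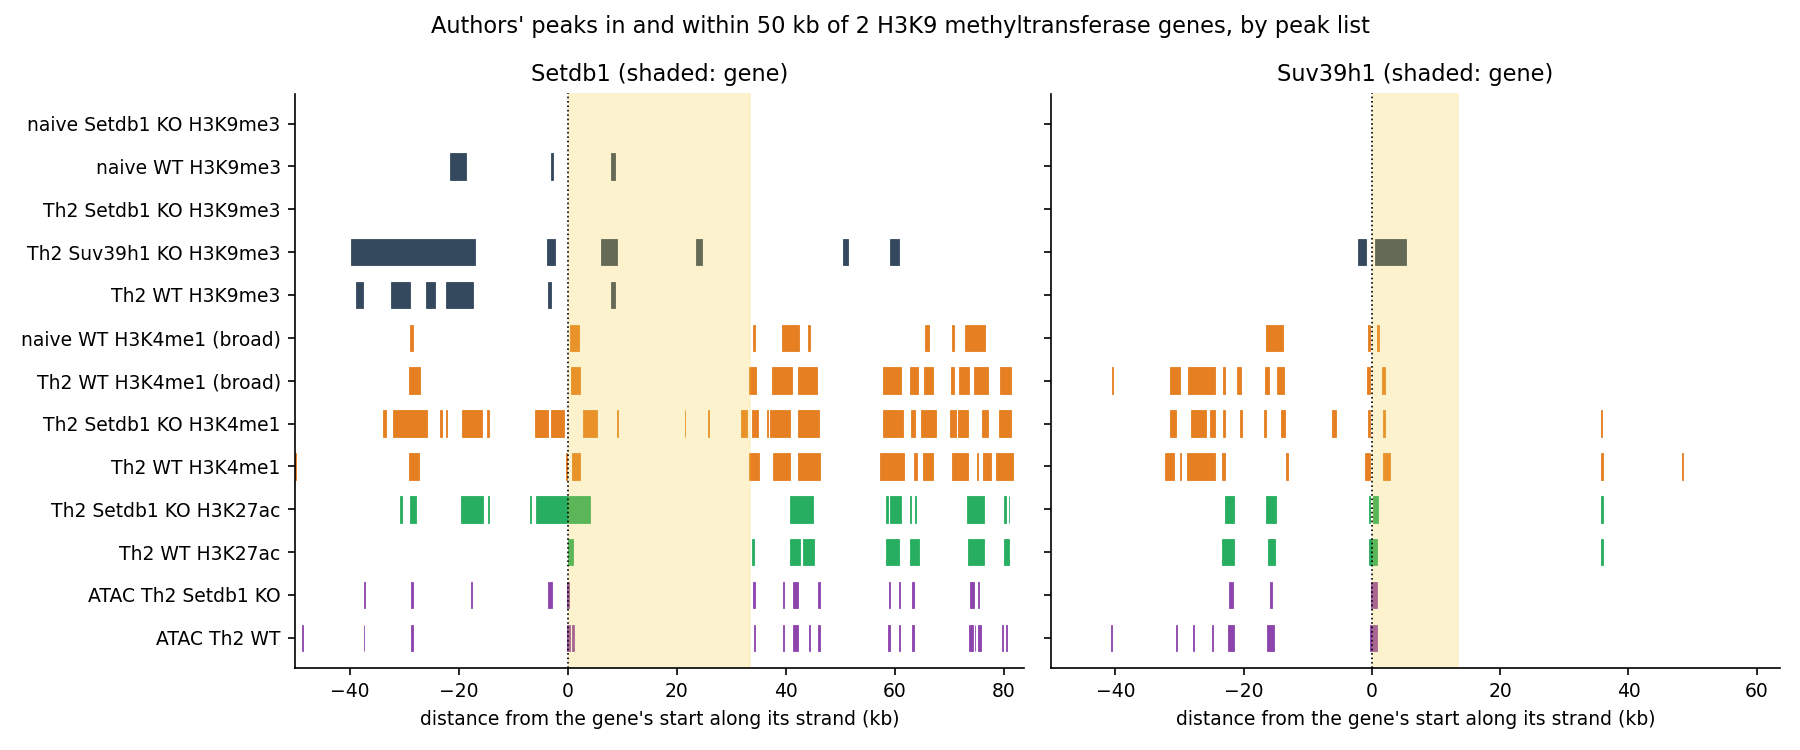
Peaks in and within 50 kb of Setdb1 (left) and Suv39h1 (right), with distance from the start along the gene's strand in kb on the horizontal axis, 1 row per peak list and the gene shaded. At Setdb1 the H3K9me3 rows of both Setdb1 KO groups are empty, and the Th2 Setdb1 KO row of H3K27ac shows the peak of 9815 bases over the start. At Suv39h1 only the Suv39h1 KO row of H3K9me3 has regions.

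Setdb2 (chr14:59402009-59440880, minus strand) had an H3K9me3 region inside the gene in Th2 WT cells, at chr14:59427951-59429850, and in Suv39h1 KO cells, at chr14:59427801-59430050. In Setdb1 KO Th2 cells that stretch held a H3K4me1 peak of 651 bases, an H3K27ac peak of 231 bases and an ATAC peak of 105 bases, and the WT lists of these marks had none there. The H3K27ac and ATAC peaks both had an authors' score of 19, low for lists with medians of 35 and 43. At the start of Setdb2, both the H3K27ac and the ATAC peaks covered all 300 bases of the window in Setdb1 KO and in WT cells.

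Over the 11 Th2 WT H3K9me3 regions near the 6 genes, peaks of other marks were listed more often in Setdb1 KO cells, though 6 of the 11 lie at Setdb1 alone. H3K27ac peaks of Setdb1 KO cells overlapped 4 of the 11 (12% of all 12233 regions) and those of WT cells 0 (7.79%). ATAC peaks of Setdb1 KO cells overlapped 3 (9.31%) and those of WT cells 0 (9.6%). H3K4me1 peaks of Setdb1 KO cells overlapped 4 (29.2%) and those of WT cells 1 (19.4%). Over the 10 naive WT H3K9me3 regions near the 6 genes, H3K27ac peaks overlapped 2 in Setdb1 KO and 0 in WT Th2 cells. H3K4me1 peaks overlapped 4 in Setdb1 KO and 1 in WT, while ATAC peaks overlapped 1 in Setdb1 KO and 2 in WT. The shares of all naive WT regions are not given here. These counts thus do not show whether the regions near the 6 genes differ from the rest.

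Suv39h1 (chrX:8061171-8074760, minus strand) had H3K9me3 listed in a single group, the cells labelled as lacking the gene. In Suv39h1 KO cells a region of 4800 bases, chrX:8069451-8074250, lay inside the gene and ended 62 bases short of the second start window, and a region of 1200 bases, chrX:8075751-8076950, lay upstream. The first was longer than 95% of its list, and its score was higher than 98.7% of it. The Th2 WT list had none within 50 kb, its nearest region being 4087041 bases from the first start window. No RNA library of Suv39h1 KO cells was in the table, so the gene's RNA in those cells was not analysed here.

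At the Suv39h1 starts, Setdb1 KO Th2 cells had H3K27ac peaks at chrX:8073801-8074586 and chrX:8075025-8075258, and WT Th2 cells had 1 peak over both starts at chrX:8073945-8075254. The first start window thus held no H3K27ac peak in Setdb1 KO cells and was covered over all 300 bases in WT cells, while the second was covered over 275 bases in Setdb1 KO and 300 in WT cells. ATAC peaks covered 236 bases of the first window in Setdb1 KO and 278 in WT cells, and all 300 of the second in both.

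Suv39h2 (chr2:3455815-3474986, minus strand) had 1 Th2 WT H3K9me3 region, of 800 bases, upstream at chr2:3479001-3479800. In Suv39h1 KO cells that stretch was listed over 1100 bases, with 5 further regions within 50 kb. Ehmt1 (chr2:24790769-24919643, minus strand) had 1 Th2 WT region beyond its end, at chr2:24780151-24781650, and 4 regions in Suv39h1 KO cells. Ehmt2 (chr17:34898463-34914073, plus strand) had none in Th2 WT cells, 1 of 300 bases in naive WT cells and 4 in Suv39h1 KO cells, the nearest of which lay 1274 bases from the first start window.

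Active marks were listed inside all 6 genes, and so also within 50 kb, in all 8 of their lists. Among all protein-coding genes the share with a peak inside the gene and the share with one inside or within 50 kb were 55.4% and 76.3% for H3K27ac in Setdb1 KO Th2 cells and 55.8% and 75.2% in WT Th2 cells. They were 66.6% and 85.1% for ATAC in Setdb1 KO and 71.4% and 87.3% in WT Th2 cells. For H3K4me1 they were 66.9% and 81.6% in Setdb1 KO and 65.2% and 80.4% in WT Th2 cells, and in the broad set 65.8% and 79.7% in Th2 WT and 61.8% and 76.9% in naive WT cells. H3K27ac was listed at the starts of all 6 in Setdb1 KO Th2 cells (41.5% of genes) and in WT Th2 cells (45.9%), and ATAC peaks likewise (54.1% and 58.1%). H3K4me1 was listed at the starts of none in Setdb1 KO Th2 cells (19.8%) and of 1 in WT Th2 cells (18.1%), which was Setdb1. In the broad H3K4me1 set it was listed at the starts of none in Th2 WT cells (28.5%) and of 3 in naive WT cells (40.6%), which were Suv39h2, Ehmt1 and Ehmt2.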

How the data were processed

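RNA was measured by RNA-seq in 18 libraries of naive, Th2 and Th2-Th1 cells. Per the submitters' processing notes, the tools included cutadapt 1.3, TopHat2 2.0.5, BWA 0.7.10, MACS2 2.1.0 and DESeq, on build mm10. The annotation and strand setting used for counting are not stated there. The deposited RNA values are a normalised signal, read counts that the authors divided by a size factor per library: 100% of values came back as whole reads within 0.01. The gene table stood in its file as 2 identical copies, of which the first was used.

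The deposited H3K9me3 lists give a score per region, whose scale and caller no label or header names. The other deposited lists have the MACS2 layout, with a score that is 10 times the −log10 q-value, a fold enrichment ratio and −log10 p and q columns, all by the authors.

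Genes with at least 10 normalised reads in at least 2 libraries were tested on log2(value + 1) with limma 3.58.1 (R 4.3.3), trended, over all 18 libraries with 1 coefficient per group and 12 residual degrees of freedom. P-values were adjusted by Benjamini-Hochberg over all 17254 genes, with a threshold of 0.05. edgeR 4.0.16 and DESeq2 1.42.0 on the recovered reads were alternatives. The fit was tested on simulated data. Peaks counted as near a gene within 50 kb, and at a start when they overlapped the 300-base window, by 1 base or more.

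The 6 genes and the gene lists were chosen with earlier results of these data known. Besides the 6, genes were named by rule. From each list came up to 3 per direction with the largest called change (fewer are printed here). Those needed a mean of at least 50 over the 18 libraries. The others were neighbours within 50 kb and the 3 nearest profiles. Atf7ip has more than 1 gene ID in the table, and the one with the highest mean was used.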

Additional observations from a re-analysis of the deposited data

Results flagged for a closer look

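For 7 values, the difference between libraries labelled Setdb1 KO and WT libraries was not the same in 2 conditions, by the interaction term of limma. Between Th2 and naive cells the difference was larger in Th2 cells by 3.76 for Setdb1, 1.11 for Setdb2 and 1.14 for Suv39h1 on the log2 scale. Between Th2-Th1 and Th2 cells it changed by -1.43 for Setdb1, -1.04 for Setdb2, -0.90 for Suv39h2 and -0.42 for Ehmt1. The Th2 libraries enter both sets of values. The 22 cell-cycle genes had median interactions of -1.21 between Th2 and naive cells, opposite in sign to those 3 genes, and -1.24 between Th2-Th1 and Th2 cells, the same sign as those 4, and their part was not tested. Depth and genotype cannot be told apart in the cultured cells.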

How the results depend on the processing

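Of 1458 values of the 6 genes under the alternatives, 1421 kept their side of the threshold, 24 lost it and 13 gained it. No value past the threshold in either fit changed sign. Some that missed it in both did, such as Ehmt2 in Th2-Th1 cells (-0.05, and 0.03 under TMM scaling). Leaving out 1 library gave 972 of the values, and a library outside a comparison cannot change its log2 difference. Nor can dropping the filter or fitting only the groups compared, so much of this count was fixed in advance. In naive cells the 1877 genes called became 1028 in a fit of the naive groups alone and 965 without the 3 libraries that stood apart, and 1077 to 2497 when 1 library was left out. The 2 of 6 genes called there became 1 with no filter, 0 in the fit of the naive groups alone and 1 without the 3 libraries, and 1 to 2 with 1 library left out. In Th2-Th1 cells leaving out 1 library gave 3836 to 6078 genes, against 5810, and 1 to 3 of the 6, both lowest without WT replicate 2, where the lone WT library is assumed to vary like the other groups. In Th2 cells it gave 8333 to 9575 genes and 4 to 5 of the 6. TMM scaling moved the median difference of all genes by 0.11 in Th2 cells and by 0.11 in the Th2 against naive interaction, and by less than 0.1 elsewhere. Widening the window to 100 kb gave 1 of 6 genes with an H3K9me3 region in each of the naive and Th2 Setdb1 KO lists, and keeping regions at or above the median score gave 3 of 6 in the naive WT list. Same-numbered replicates did not deviate together in all pairs (correlations of -0.26 to 0.29). The labels do not say whether the numbers pair the samples, and groups this small cannot settle it. With the replicate block 1775 genes were called in naive, 9359 in Th2 and 5832 in Th2-Th1 cells, and 2, 4 and 3 of the 6. With it Ehmt1 passed between Th2-Th1 WT and Th2 WT cells (limma, adjusted p = 0.0292). Peak lists come 1 to a group, whether it has 1 sample or 2, and depth limits Suv39h2 most, at 50 reads in its lowest library.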
